A study of Mus musculus with 2 samples.

Results

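The distal ends of the mouse chromosomes were examined in a map of H3K9me3, trimethylation of lysine 9 of histone H3. Members were the peaks of the authors' replicated mm10 list that lay wholly within the last 5 Mb before the end of the last replicated peak on each of chromosomes 1 to 19. Position alone chose them, and 4892 of 123489 replicated peaks qualified, or 4.11% of the 118999 peaks on these 19 chromosomes in 3.96% of their span. Each chromosome contributed 146 to 380 members, with a median of 276. The strength of a peak is given as the authors' fold enrichment for it, and what that value is relative to is not stated in the labels or file lists. At the inner border of the windows 3 peaks crossed and were left out. The member nearest to that border had a fold enrichment of 2.57 to 20.0 across chromosomes (median 4.65), and the nearest peak outside it 2.29 to 14.4 (median 4.35).

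The mark was mapped by ChIP-seq in E14TG2a.4, a male embryonic stem cell line of strain 129/Ola whose labels give an embryonic stage and an age of 3.5 day. The 2 biological replicates form 1 group with no labelled treatment and come from separate biosamples of 1 line and donor, so the spread between them holds no difference between animals. No input library was analysed here, and peak lists hold no expression with which to check the labelled cell type. None of the 8 pluripotency or 8 fibroblast genes listed for that purpose lay in a distal window. The read depth behind the lists is unknown, 1 group allows no test between conditions, and the 19 chromosomes of a library are not replicates, so all comparisons are descriptions.

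Telomeres cap linear chromosomes with tandem copies of the hexamer TTAGGG, and the adjoining subtelomeric sequence is rich in repeats and duplicated gene families. H3K9me3 is bound by HP1 proteins and is known from constitutive heterochromatin, including that of mouse centromeres and telomeres, and from silenced retroelements. Mouse chromosomes carry the centromere next to one end, and the distal end considered here is the opposite one.

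Sequence under the mark was read from mm9, the build for which a genome was at hand, at regions called in both replicates (shared regions). The stretches shown here let the middles of some of the strongest distal regions be compared. The plus strand is given 5′ to 3′. When the strongest region of each chromosome was ranked by the mean fold enrichment of both replicates in mm9, sequence was compared for 6 of the first 7. The middle 200 bases of those on chromosomes 13 and 5 shared an exact run of 75 bases on opposite strands. The shared run is in capitals. The lower-case bases before it on chromosome 13 also match those just after it on chromosome 5, apart from the base next to the run.
chr13:116683001-116683200: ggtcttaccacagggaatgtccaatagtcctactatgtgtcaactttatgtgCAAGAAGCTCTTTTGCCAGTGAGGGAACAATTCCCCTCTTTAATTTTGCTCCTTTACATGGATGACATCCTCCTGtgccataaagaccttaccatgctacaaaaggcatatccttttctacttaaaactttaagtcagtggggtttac
chr5:152256901-152257100: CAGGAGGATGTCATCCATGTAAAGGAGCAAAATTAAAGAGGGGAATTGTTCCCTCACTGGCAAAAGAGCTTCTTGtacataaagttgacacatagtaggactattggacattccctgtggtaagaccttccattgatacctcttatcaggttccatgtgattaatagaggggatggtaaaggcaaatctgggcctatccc
The chromosome 13 region is 7.40 kb wide with fold enrichments of 11.3 and 16 in replicates 1 and 2, and the chromosome 5 region 7.20 kb with 10.1 and 14.4. Both lie between genes of GENCODE M1, 261 kb from Gm6404 and 40.2 kb from 1700028E10Rik, and every 16-base word in either stretch occurs at least 50 times in the genome. The stretches on chromosomes 8 and 4, with values of 9.86 and 14.5 and of 10.3 and 14, shared a run of 19 bases at their edges. The remaining pairs among these 6 shared at most 9 bases. Only the middle 200 bases of each region were compared, so sequence shared elsewhere in these regions would be missed. The strongest of all by the mean was a 0.400 kb region in an intron of Arntl2, a circadian transcription factor gene on chromosome 6, at 8.57 in replicate 1 and 19 in replicate 2.

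Coverage rose steeply towards the distal end. In mm10 the 25 kb next to the last peak were 37.0% covered by replicated peaks on average over 19 chromosomes (SD 18), the next 25 kb 18.4%, and the bins from 50 to 100 kb and from 100 to 200 kb 14.1% and 9.96%. From 200 to 300 kb the mean was 4.94%, and from 400 to 500 kb it was 1.81%, below the 3.73% of the rest of the chromosome. Replicate 1's own list gave 28.8% for the first 25 kb and 1.25% for the last of these bins, and replicate 2's gave 38.5% and 1.99%. The window was placed at a peak, which by itself raises the first bin. Measured from the start of the last peak, which leaves that peak out, the first 25 kb were 32.9% covered and above the rest on 18 of 19 chromosomes. That bin still begins beside a peak, so leaving the peak out does not remove the effect of where the window was placed.

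**Figure D1:**
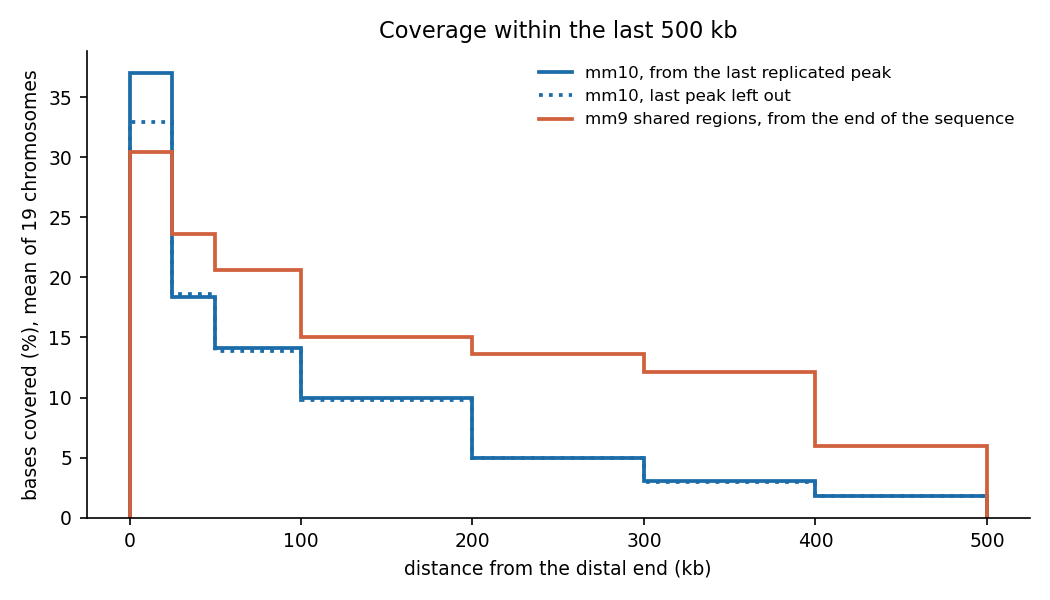
Mean percent of bases covered over 19 chromosomes (vertical axis) against distance from the distal end in kb (horizontal axis), for replicated mm10 peaks with and without the last peak, and for mm9 shared regions counted from the end of the assembled sequence. All 3 lines are highest in the first 25 kb, at 37.0%, 32.9% and 30.4%, and lowest from 400 to 500 kb, at 1.81%, 1.82% and 5.95%. The rest of the chromosomes was 3.73% covered in mm10 and 7.55% in mm9.

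The mm9 genome gave an anchor that no peak sets, the last assembled base. Shared regions covered 30.4% of the last 25 kb (SD 34.2), 23.6% of the next 25 kb, 15.0% from 100 to 200 kb and 5.95% from 400 to 500 kb. The rest of the chromosomes, pooled, was 7.55% covered in mm9, so the mean from 400 to 500 kb lay below it. The chromosomes differed widely. The last 25 kb ranged from 0% on 7 chromosomes to 96.2%, and were above the rest on 11 of 19. The outermost shared region ended within 10 kb of the last assembled base on 11 of 19 chromosomes, with a median distance of 6.23 kb and a range of 0.0510 kb (chromosome 17) to 307 kb (chromosome 1). The mean fold enrichment of these 19 outermost regions ran from 1.72 on chromosome 14 to 7.29 on chromosome 4 (median 3.57, against 3.28 over all 1459 distal shared regions).

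The last 0.5 Mb were set apart after the profile by distance had been seen. Over this stretch the mm10 mean was 8.13% (SD 3.41, 19 chromosomes), with 6.18% in replicate 1 and 8.65% in replicate 2, against 3.73%, 2.79% and 4.03% in the rest. The ratio of the means was 2.18. The last 0.5 Mb exceeded the rest on 18 of 19 chromosomes in the replicated list and in each replicate's list, and on 17 without the last peak. It ranged from 1.38% on chromosome 13 to 13.6% on chromosome 16, and chromosomes 15, 6, 1 and 4 followed with 12.7%, 12.4%, 12.2% and 11.9%. Among the 0.5 Mb bins of its chromosome it lay in the upper 10% on 11 chromosomes and was never the highest. In mm9, counted from the last assembled base, it was 14.1% (SD 7.54) and above the rest on 14 of 19 chromosomes. Single chromosomes changed sides between these mm10 and mm9 values. The values differ in build, in the kind of region (narrow peaks or broad regions) and in where the stretch ends, and these cannot be told apart. Chromosome 1 stood at 2.60% against 8.01% in its rest in mm9 and chromosome 15 at 6.28% against 6.96%, while chromosome 13 was above its rest, at 12.8% against 8.92%. Chromosomes 2, 7 and 9 were the others below their rest in mm9. On chromosome 1 the replicates differed in this stretch of mm9, with 19.4% in replicate 1 and 3.16% in replicate 2.

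This terminal stretch held 942 members, 19.3% of all, in the outermost 0.5 of the 5 Mb. Their density was 99.2 per Mb against 46.2 from 0.5 to 5 Mb and 49.5 in the rest. The authors' fold enrichment had a median of 4.80 there, against 4.20 in both other zones, and was higher than the rest on 15 of 19 chromosomes. A value of at least 10 was reached by 10.5% of these peaks, 6.81% of the members further in and 6.23% of the peaks of the rest. Their median width of 531 bp equalled that of the rest, so the higher coverage went with more peaks of the same median width. A median does not show whether the widest peaks also added to it.

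The inner part of the windows looked different. From 0.5 to 2.5 Mb the mean of each 0.5 Mb bin lay between 2.58% and 3.09%, and at most 7 of 19 chromosomes were above their rest in any of these bins. From 2.5 to 4 Mb it lay between 4.31% and 4.82%. Over 0.5 to 5 Mb as a whole, coverage was 3.66% against 3.73%, higher on 8 of 19 chromosomes. The first 0.5 Mb after the first peak, at the centromeric end, averaged 7.83%, above the rest on 12 of 19 chromosomes and above the last 0.5 Mb on 6.

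**Figure D2:**
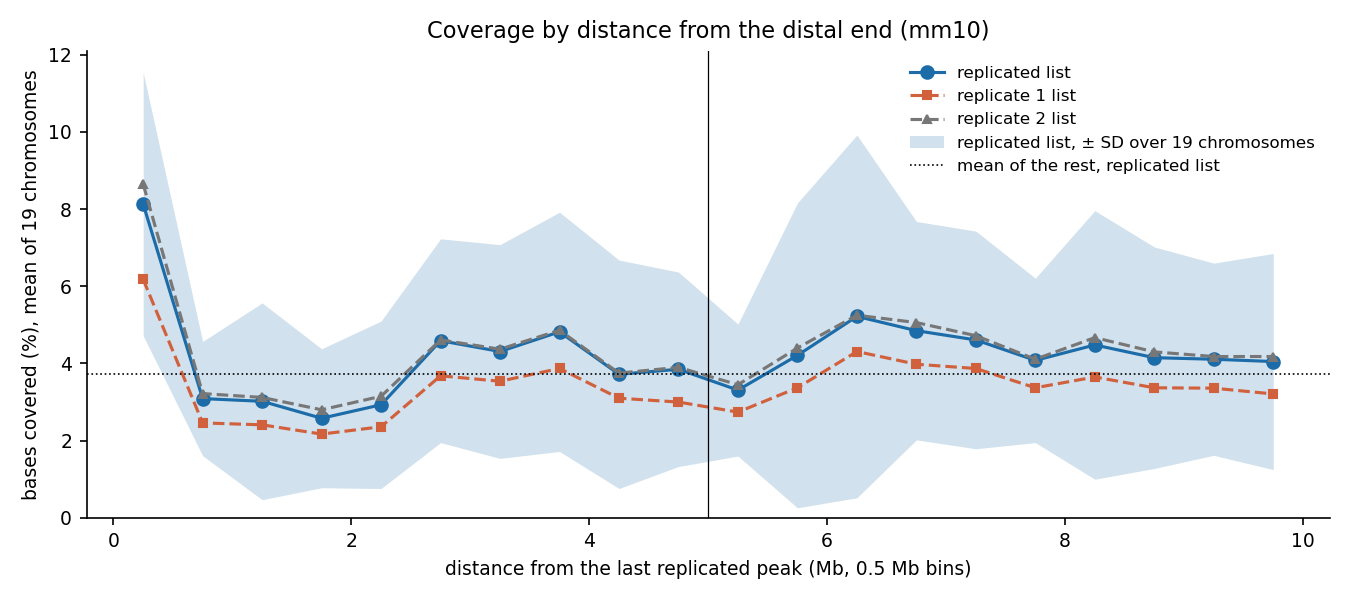
Mean percent of bases covered in 0.5 Mb bins (vertical axis) against distance from the last replicated peak in Mb (horizontal axis), for the replicated list and each replicate's own list, with a band of ± SD over 19 chromosomes, a dotted line at the mean of the rest and a vertical line at the inner border of the windows. The first bin stands at 8.13%, and the bins from 0.5 to 2.5 Mb lie between 2.58% and 3.09% in the replicated list.

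Taken over the full 5 Mb, the distal windows differed little from the rest. Replicated peaks covered 3.90 Mb of 95 Mb, or 4.10%, against 3.76% of the rest, a ratio of 1.09. The lists of replicates 1 and 2 gave ratios of 1.16 and 1.05. Leaving out each chromosome in turn gave 1.06 to 1.13. Density was 51.5 against 49.5 peaks per Mb and higher on 10 of 19 chromosomes, but the ratio fell just below 1, to 0.993, in the list of replicate 2. The median fold enrichment was 4.31 against 4.20, with a difference of 0 in each replicate's own list, and the median width 543 against 531 bp. Peaks of both replicates overlapped 3957 of the 4892 members, or 80.9% against 79.0% of all peaks on these chromosomes, and the share was higher distally on 17 of 19 chromosomes. With mm9 shared regions the direction turned: the distal 5 Mb were 6.65% covered and the rest 7.55%, a ratio of 0.881, with 6 of 19 chromosomes higher.

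The 19 chromosomes differed widely among themselves. The ratio of distal to rest coverage was above 1 on 14 of 19 chromosomes and kept its side in the replicated list and both replicates' lists on 16, with 11 higher and 5 lower in all. It was largest on chromosome 9, where 6.50% of the distal window and 4.06% of the rest were covered (ratio 1.60, 1.75 in replicate 1 and 1.51 in replicate 2). Chromosomes 12 (1.57), 10 (1.51), 16 (1.43) and 14 (1.36) came next. Chromosome 3 had the lowest ratio, with 1.79% against 4.01% (0.446, 0.483 and 0.466), followed by chromosome 13 with 2.24% against 4.49% (0.499, 0.543 and 0.511). Chromosomes 18, 17 and 2 stood at 0.714, 0.803 and 0.923. With mm9 shared regions and the same window rule, several of these ratios lay elsewhere. Chromosomes 9, 10 and 14 stayed above 1 (1.10, 1.38 and 1.20) and chromosomes 3 and 13 below 1 (0.839 and 0.729). Chromosomes 12 and 16 turned to 0.987 and 0.638, and chromosomes 18, 17 and 2 to 1.38, 1.10 and 1.19. Across the 19 chromosomes this ratio went with the ratio of protein-coding gene density by a Pearson's r of 0.325 and a Spearman's rho of 0.307, given as a description, since all points share the same libraries.

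**Figure D3:**
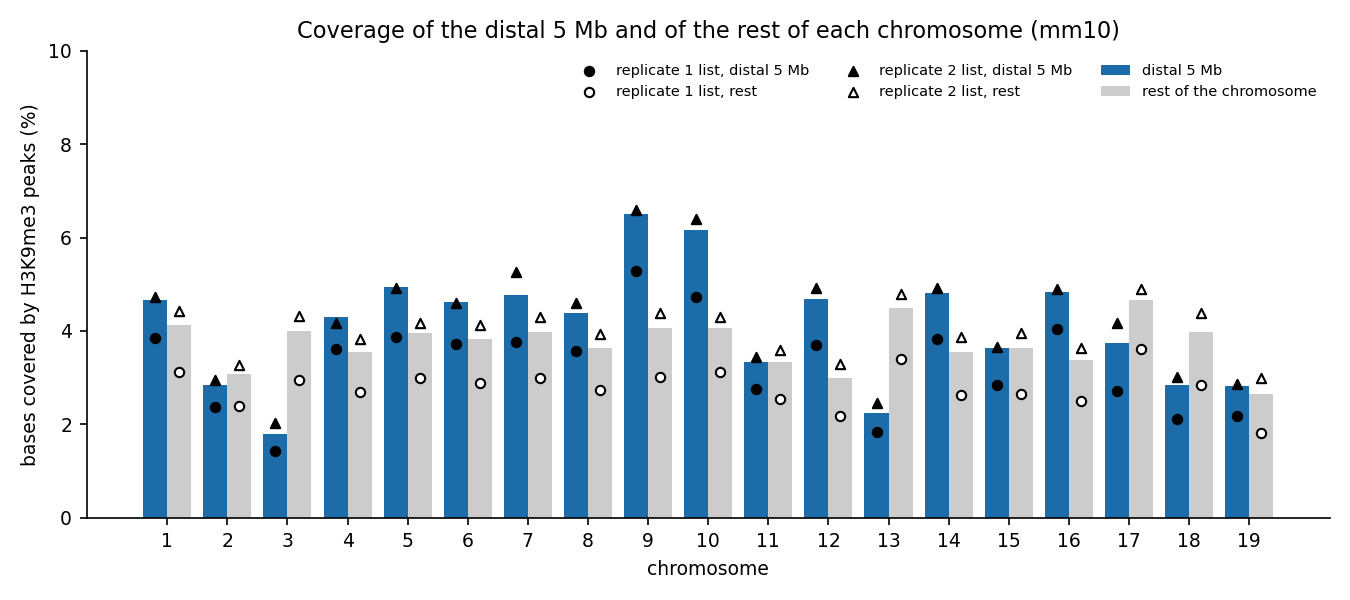
Percent of bases covered by H3K9me3 peaks (vertical axis) in the distal 5 Mb and in the rest of chromosomes 1 to 19 (horizontal axis); bars are the authors' replicated list and points the lists of the 2 replicates. Distal bars are the taller ones on 14 chromosomes, most of all on chromosome 9 (6.50% and 4.06%), and lie lowest on chromosomes 3 (1.79%) and 13 (2.24%).

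Ranked among all 5 Mb stretches laid back to back along its own chromosome, the distal one lay above the median stretch's rank on 15 of 19 chromosomes and was the most covered on none. It ranked 2 of 23 on chromosome 12, 3 of 24 on chromosome 9, 3 of 25 on chromosome 10 and 3 of 18 on chromosome 16. On chromosomes 3 and 13 it ranked 30 of 31 and 22 of 23. The 5 Mb after the first peak were 6.07% covered, more than the distal 5 Mb on 13 of 19 chromosomes.

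**Figure D4:**
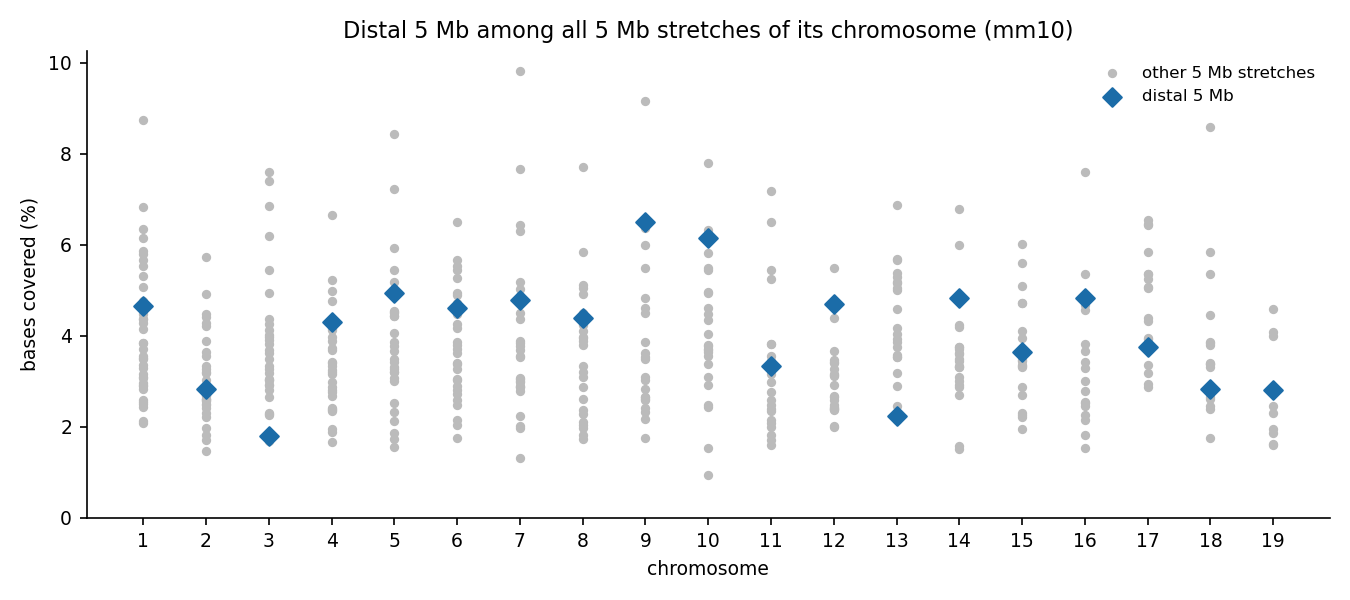
Percent of bases covered (vertical axis) in every 5 Mb stretch of chromosomes 1 to 19 (horizontal axis), with diamonds for the distal stretch and grey points for the others. The diamonds lie within the spread of their chromosome, above the middle rank on 15 of 19, and close to the bottom on chromosomes 3 and 13.

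The outermost replicated peaks were strong. Their fold enrichment ran from 3.90 on chromosome 18 to 31.5 on chromosome 13, with a median of 9.30. Of the 19, 18 exceeded the median of 4.20 over all peaks on these chromosomes. Among the 1000 or so strongest peaks of these chromosomes by fold enrichment, 6 were last peaks. Both replicates supported 17 of the 19 last peaks. The peak on chromosome 13 (120317807 to 120321209) overlapped Tcstv3, a member of a gene family expressed in 2-cell embryos, and reached 23.7 in replicate 1 and 32.3 in replicate 2. On chromosome 1 the last peak had 20.5 (16.9 and 22.3), 78.0 kb beyond the vomeronasal receptor pseudogene Vmn2r-ps1. On chromosomes 14 and 10 it had 19.5 each, 122 kb from Fgf14, a fibroblast growth factor gene, and 0.863 kb from the ferritin pseudogene Ftl1-ps2. Apart from Tcstv3, 2 last peaks touched an annotated gene, Gm21814 on chromosome 6 (17.5) and Wls on chromosome 3 (8.73), which encodes a carrier of Wnt proteins. Beyond the last replicated peaks the pooled list had 1 peak and the list of replicate 2 had 1, both on chromosome 4 and less than 0.5 kb away.

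Some of the most significant peaks of chromosomes 1 to 19 lay in these windows. By the authors' −log10 p, members held ranks 1, 2, 3 and 6 among the peaks of these chromosomes. They made up 4 of the first 10 and 16 of the first 103 peaks. Ranks 1, 3 and 6 were neighbouring peaks at 1 locus on chromosome 9, and chromosomes 9 and 13 gave 8 and 4 of the 16. Rank 1 was a 4084 bp peak at 123927346 to 123931429 on chromosome 9, over the noncoding RNA gene Gm51701, with a −log10 p of 443 and fold enrichments of 17.8 in the replicated list, 15.6 in replicate 1 and 17.8 in replicate 2. Rank 2 was a 4916 bp peak at 119612837 to 119617752 on chromosome 13, 2.38 kb from Tmem267, a gene for a transmembrane protein, with a −log10 p of 381 and a fold enrichment of 19.9 (19.6 and 21.3). Gm51701 and Tmem267 were named after these values were seen. By fold enrichment members made up 1 of the first 10, 9 of the first 100 and 55 of the first 1021 peaks (5.39%), against 64 of the first 1001 by −log10 p (6.39%). Further down the shares were close, at 490 of 10256 (4.78%) by fold enrichment and 502 of 10160 (4.94%) by −log10 p. These are near the members' 4.11% share of the peaks on these chromosomes.

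After the peak at Tcstv3, the strongest member by fold enrichment covered the start of the noncoding RNA gene Gm34502 on chromosome 11, at 27.9 (17.6 in replicate 1 and 28.4 in replicate 2). On chromosome 8 a peak 10.7 kb from the noncoding RNA gene 4930567H12Rik, had 27.3 (19.2 and 30.6). Chromosome 9 held 4 of the 10 strongest. Of these, 2 lay inside Trak1, which encodes an adaptor for mitochondrial transport along microtubules, at 26.7 (20.0 and 27.5) and 26.0 (20.5 and 26.0). Another was 4.26 kb from Gm2449 at 25.7, and the last lay in the zinc finger gene Zfp445, which encodes a regulator of imprinting, at 23.7 (18.2 and 23.1). The list closes with peaks 25 kb from Actg1, the gene of cytoplasmic gamma-actin (23.9), in Tpcn2, an endolysosomal channel gene (23.9), and at the edge of Foxk2, a forkhead factor gene (23.5). Replicate 2 had the higher value at all 10 of these peaks. The same held for most members and for most peaks of chromosomes 1 to 19 (78.0% and 80.0%).

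**Figure D5:**
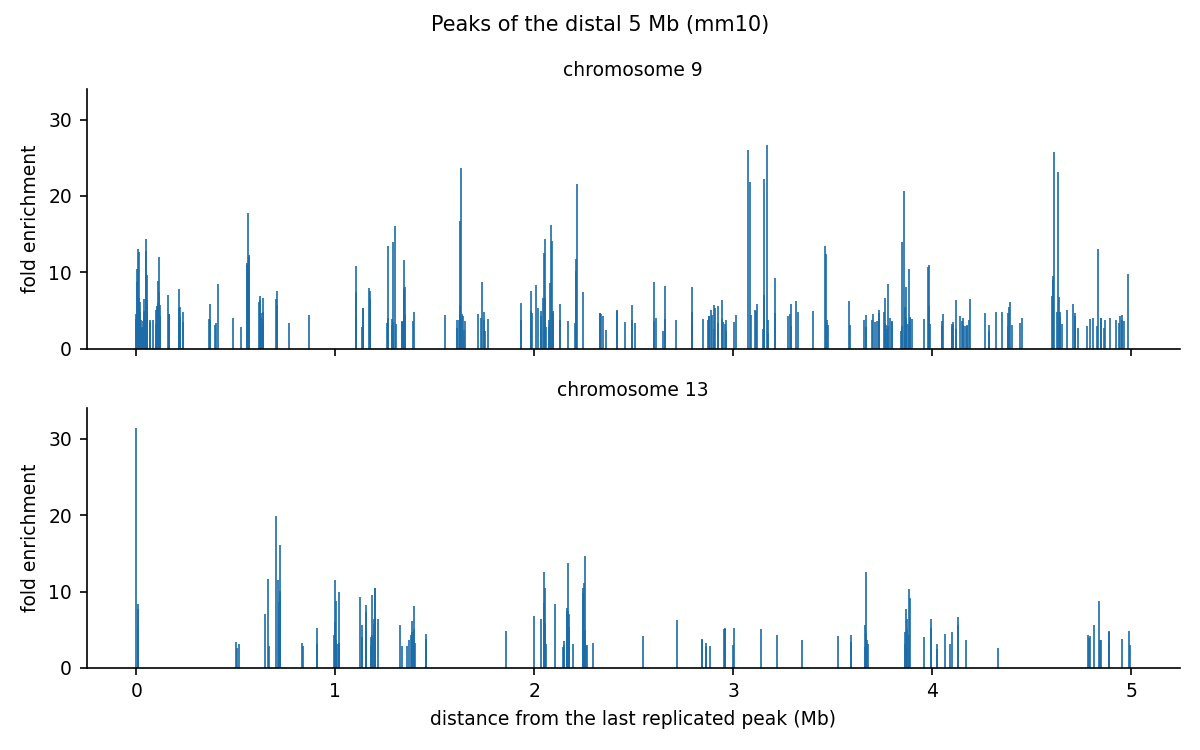
Fold enrichment of each member (vertical axis, bars) against its distance from the last replicated peak in Mb (horizontal axis) on chromosome 9, with 355 members, and chromosome 13, with 160. Bars are spread over the whole window on chromosome 9, with the tallest at 26.7, while chromosome 13 carries its tallest bar, 31.5, at the outer edge and only 5 peaks in the last 0.5 Mb.

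In the mm10 lists chromosome 13 was the only chromosome with less coverage in its last 0.5 Mb than in its rest. With the last peak left out, chromosome 14 was also below its rest in the replicated list (3.29% against 3.54%). In mm9 the last 0.5 Mb of chromosome 13 were above its rest, but its last 100 kb were at 0%. In mm10 the last 100 kb of chromosome 13 were 6.88% covered, above its rest. That stretch ends at the last peak, which is 3403 bp wide and counts towards the 6.88%. With that peak left out, the last 0.5 Mb of chromosome 13 were 0.769% covered. Its mm10 last 0.5 Mb held 5 peaks and 31 RefSeq genes, of which none was covered by 50% or more, and coverage was 1.38% (1.43% in replicate 1, 1.62% in replicate 2), against 4.49% in the rest. It ranked 207 among 234 bins of 0.5 Mb. Its genes include AF067061, AF067063 and B020031M17Rik, each at 0% (named after their values were seen). The labels and file lists do not say how reads that map to several places were treated, and the part of this in these values was not tested. Of the 100 kb windows wholly inside the distal 5 Mb of this chromosome, 40.8% held no peak. Over all 19 chromosomes 140 of 931 such windows held none, or 15.0%, the same as the 15.0% of all 100 kb windows on these chromosomes.

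Dense stretches were about as frequent as elsewhere. Of 931 windows of 100 kb, 15 were at least 20% covered, or 1.61%, against 1.52% of all such windows. The list of replicate 1 gave 6 such windows and that of replicate 2 gave 18. The densest, on chromosome 16 from 98000001 to 98100000, was 60.0% covered (47.8% in replicate 1 and 59.5% in replicate 2), ranked 5 of all 23980 windows and its outer edge lay 0.00745 Mb from the end of the last peak. It holds the noncoding RNA genes A630089N07Rik and C030010L15Rik and the protein-coding gene B230307C23Rik. The next was on chromosome 12 at 116000001 to 116100000, with 35.4% (25.8% and 35.2%), over Vipr2, which encodes a receptor for vasoactive intestinal peptide, and the zinc finger gene Zfp386. On chromosome 4 the window 156100001 to 156200000 was 34.0% covered (28.9% and 33.9%) and includes Agrn, the gene of agrin, a proteoglycan of the neuromuscular junction. Windows of chromosome 10 at Olfr784 (26.9%) and at Rdh18-ps (25%) followed. Of these 5 windows, those on chromosomes 16 and 4 lay within 0.2 Mb of the last peak and the others 1.19 to 3.93 Mb away.

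When peaks less than 1 kb apart were joined, 4 of 2932 distal blocks were at least 20 kb wide, or 0.136%, against 45 of 67479 in the rest, or 0.0667%. The widest spanned 32.3 kb on chromosome 4 (156152789 to 156185096), 11 peaks over Agrn, and ranked 5 among all 70411 blocks. The others were 22.6 kb at Vipr2 and Zfp386, 22.4 kb at B230307C23Rik and 20.2 kb at the very end of chromosome 9, where 18 peaks spanned Ppp2r3d, itself covered by 100%. Of these 4 blocks, 3 lay within 0.2 Mb of the last peak.

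Genes as a whole were touched no more often than elsewhere. Of 2304 RefSeq genes wholly inside the windows, 552 had at least 1 covered base, or 24.0%, against 25.4% of all genes on these chromosomes. At least 50% of the body was covered in 62, or 2.69%, against 1.99%. For protein-coding genes it was 18 of 1095, or 1.64%, against 0.774%. The share of heavily covered genes was higher close to the end, though most of the 62 lay further in. The last 0.5 Mb held 19 of them among its 253 genes (7.51%), against 43 among 2039 from 0.5 to 5 Mb (2.11%). In the last 0.5 Mb 10 of 122 protein-coding genes reached 50%, or 8.20%, against 8 of 963 from 0.5 to 5 Mb, or 0.831%. Neighbouring genes can share a block, so these genes are not independent of each other.

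Among genes of at least 5 kb the most covered was B230307C23Rik, at 84.9% of its 19.7 kb (71.1% in replicate 1 and 82.2% in replicate 2). On chromosome 4, 3 genes within 0.2 Mb of the last peak were marked over most of their length. Noc2l, which encodes an inhibitor of histone acetyltransferases, was covered by 78.2% (72.7% and 79.0%), Samd11, a photoreceptor gene regulator, by 61.1% (52.9% and 63.3%), and Agrn by 59.0% (54.2% and 58.1%). Between Agrn and Noc2l, Isg15, Perm1, Plekhn1 and Klhl17 were at 0% in the replicated list (these 4, and Agrn by this measure, were named after their values were seen). Further genes at 60% or more were Gm45871 (79.0%), Gm10516 (74.5%), A630089N07Rik (73.5%), Rdh18-ps (66.1%), C030010L15Rik (65.7%), Krt86 (64.4%), Gm21814 (63.5%), Gm40460 (63.3%) and Nsl1 (60.3%), the last a kinetochore gene. In all 13 named here, the lists of replicates 1 and 2 each covered at least 45.2% of the body.

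Gene families that lie in the windows were marked unevenly. Vomeronasal receptors, which detect pheromones, were touched in 8 of 13 distal members, against 16.1% of the 610 members elsewhere. The gap was smaller by covered length, at 6.82% of their summed length distally and 4.06% elsewhere. The most covered were Vmn2r-ps112 on chromosome 16, at 100%, Vmn2r-ps1 at 48.5%, Vmn2r-ps27 at 32.0% and Vmn2r129 on chromosome 4, at 20.2%, and the other 4 lay between 1.17% and 14.7%. All 13 were close to the end, the touched ones within 0.185 Mb of the last peak and the untouched ones within 0.273 Mb. Of the keratin genes, which encode filament proteins of epithelia and hair, and the keratin-associated genes listed with them, 13 of 32 were touched, against 8.86% elsewhere. Peaks covered 7.72% of the summed length of these genes distally and 2.02% elsewhere. The 13, all keratins, lie together on chromosome 15, 1.95 to 2.57 Mb from the last peak, and the hair keratins Krt86 (64.4%), Krt88 (41.9%), Krt87 (30.2%) and Krt83 (28.9%) led. Olfactory receptors were touched in 7 of 91, against 7.30% elsewhere. At 50% or more were 5 of the 91, against 51 of 1329 elsewhere. The 5 were all on chromosome 10: Olfr784 and Olfr778-ps1 at 100%, Olfr783-ps1 at 99.6%, Olfr817-ps1 at 93.7% and Olfr1544-ps1 at 87.1%. Members of these families are similar in sequence, so reads may not be assigned to single copies with certainty.

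Zinc finger genes, known as targets of H3K9me3 over their repeated finger exons, were touched in 3 of 17 distal members, against 37.5% of 421 elsewhere, although peaks covered 5.36% of their summed length distally and 4.68% elsewhere. The 3 were Zfp386 (35.9%), Zfp445 (33.9%) and Zfp972 (1.03%). Of 54 immunoglobulin heavy chain segments in the chromosome 12 window 2 were touched, Ighv1-67 (100%) and Ighv8-5 (32.2%), against 14 of 158 elsewhere, or 8.86%. The imprinted cluster on chromosome 7 placed 16 imprinted genes in a distal window, and 6 were touched, against 27 of 35 elsewhere, or 77.1%. The covered share of their summed length was nevertheless similar, at 8.76% and 8.21%. The 6 were H19 at 67.2% (61.2% and 64.0%), the trophoblast factor gene Ascl2 at 36.8%, the noncoding RNA gene Kcnq1ot1 at 17.2%, the potassium channel gene Kcnq1 at 11.0%, and Tspan32 and Igf2 at 9.77% and 6.54%. Among 67 microRNA genes 4 were touched, against 29 of 1036 elsewhere, or 2.80%. They were Mir675, which lies in H19, Mir6935 and Mir196a-2 at 100%, and the host gene Mir205hg at 43.2%. Mir196a-2 was covered by replicate 2 and not at all by replicate 1.

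The remaining lists had few distal members. Of 2 genes of the 2-cell embryo, Tcstv3 was covered by 32.5% (29.6% and 44.4%) and its relative Tcstv1 was at 0%. Rtel1, a helicase gene of telomere maintenance and the only gene of its list in a window, was covered by 2.01%. Cbx5, which encodes the H3K9me3-binding protein HP1 alpha, was at 0%. All 7 ribosomal protein genes in the windows were at 0%, and 4 of 74 were touched elsewhere, or 5.41%. Germ cell genes were touched in 3 of 4, at 11.7% for Tuba3b, 3.33% for Tdrd1 and 1.83% for Sycp2, and in 10 of 19 elsewhere, or 52.6%.

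Promoters, taken as RefSeq stretches of 300 bases around the start of a gene, were marked as often as elsewhere. A replicated peak overlapped 52 of 1430 distal promoters, or 3.64%, against 3.51% of all. Among protein-coding genes it was 20 of 894, or 2.24%, against 2.38% of all protein-coding promoters. The marked distal promoters held a median of 5 CpG dinucleotides and the unmarked ones 9. For protein-coding genes alone these medians were 10 and 16. Several marked promoters were richer in CpG, with up to 35. The 1 shown here belongs to B3glct, which encodes a glucosyltransferase of the endoplasmic reticulum. Among the 8 most strongly marked it was the CpG-richest, with 24 CpG and a fold enrichment of 14 (9.36 in replicate 1 and 15.3 in replicate 2). It was chosen after its values were seen. The peak covered 189 of the 300 bases. The promoter lies at chr5:149677980-149678279 on the plus strand (GRCm38.p6, sequence from RefSeq), and its 250 bases before the start follow with CpG in capitals.
B3glct: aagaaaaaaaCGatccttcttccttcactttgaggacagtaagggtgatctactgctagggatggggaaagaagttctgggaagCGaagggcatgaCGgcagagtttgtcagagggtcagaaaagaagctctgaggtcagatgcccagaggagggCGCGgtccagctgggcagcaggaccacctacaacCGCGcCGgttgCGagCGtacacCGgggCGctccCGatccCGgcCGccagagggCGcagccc
Of the 8, LOC108167320 and Ppp2r3d near the end of chromosome 9 each contain 100 unknown bases. The single hexamer TTAGGG, searched on both strands, occurred in 10.1% of distal promoters and 10.6% of all promoters of this length.

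Sequence under the mark was compared in mm9. A base was called high-copy when the 16-base word starting there occurs at least 50 times in the genome. In the last 0.5 Mb before the outermost shared region, 54.2% of marked and 19.6% of unmarked bases were high-copy, against 50.5% and 15.5% in the rest of the chromosomes. From 0.5 to 5 Mb the shares were 45.6% and 13.4%. In each pooled zone marked sequence held the larger high-copy share. The difference between the last 0.5 Mb and the rest was not shared by all chromosomes: the last 0.5 Mb were above the rest on 11 of 19 in marked and on 13 of 19 in unmarked bases. Chromosome 7 lay the other way, with 11.8% of marked bases against 48.8% in its rest. Distal sequence held more CpG, with 11.1 per kb in marked and 9.58 per kb in unmarked bases of the 5 Mb windows, against 10.6 and 8.28 in the rest, whereas the last 0.5 Mb had 9.84 and 6.67. GC content differed little, at 43.3% and 43.9% in the windows and 42.4% and 41.8% in the rest.

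Tandem runs of at least 3 telomere hexamers, on either strand, numbered 77 in the distal windows, 424 in the rest and 2 beyond the outermost shared region. Counted as loci, with runs less than 1 kb apart joined, there were 49 distal loci, or 0.518 per Mb, against 0.130 per Mb in the rest. Shared regions touched 5 of the 49 distal loci (10.2%) and 18 of 298 in the rest (6.04%). Runs beyond the outermost shared region are untouched by definition and stand outside both counts. The unequal ends of the mm9 sequence cannot be told apart from differences in the mark itself.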

How the data were processed

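H3K9me3 ChIP-seq peak lists of 2 biological replicates were used. The authors deposited narrow peaks in mm10 for each replicate, for the pooled reads and as a replicated list made from these, and broad regions in mm9, per the deposited file lists. The deposited mm10 lists give a fold enrichment, a −log10 p and a −log10 q per peak, and the deposited mm9 lists a fold enrichment with linear p-value and q-value columns, as the authors' software wrote them. The authors' aligner, peak caller and treatment of multi-mapping reads are not named in the labels or file lists, and the depth is unknown.

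Each window ended at the last replicated peak, since no mm10 chromosome length was used. Coverage is the percent of bases under at least 1 peak, and the rest runs from the first peak to the window. A replicate supported a peak when its own peaks overlapped it by 1 bp. Gene spans and promoters came from RefSeq tables (GRCm38.p6), without exons. In mm9, shared regions are bases in both replicates' lists, read against the NCBIM37 genome and its GENCODE annotation. Sequence at the assembled chromosome ends, and of 1 of the 7 strongest chromosome maxima, is not reported here.

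Python 3.11.15, numpy 2.4.6, pandas 2.3.3, scipy 1.17.1 and matplotlib 3.10.9 were used, and the interval arithmetic was tested on simulated data. With 1 group of 2 replicates no test was run. Genes were named by rule: the 12 most covered of at least 5 kb, those nearest to the 10 strongest members and to each last peak, at most 4 per gene list, and at most 3 from each of the 5 most covered 100 kb windows. Exceptions are marked in the text. Members and gene lists were chosen with earlier results of these data known. Alternatives covered the window size, the list used, thresholds, overlap, the extent of the rest and the mm9 shared regions. The last of these changes the build and also the kind of region, from narrow to broad. Those for the last 0.5 Mb were chosen after seeing the data.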

Additional observations from a re-analysis of the deposited data

How the results depend on the processing

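The coverage ratio of the distal 5 Mb to the rest (1.09) lay between 1.05 and 1.16 under every mm10 alternative tried. It reversed to 0.881 with mm9 shared regions, where 6 instead of 14 chromosomes were higher distally. The density ratio (1.04) ranged from 0.993 to 1.10 over the 2 replicates' lists, the lower value being a reversal with replicate 1 left out. The width ratio (1.02) reversed to 0.987 with a window of 2 Mb, and was 1.02 with 10 Mb, 1.04 in the pooled list, 1.03 for peaks with a fold enrichment of at least 4, and 1.01 to 1.02 in the replicates' lists. The difference in median fold enrichment (0.107) was 0.275 with 2 Mb, 0 with 10 Mb, 0.116 in the pooled list, 0.0832 at a fold enrichment of at least 4 and 0 in both replicates' lists.

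Support by both replicates fell from 80.9% to 64.8% when an overlap of 50% was asked for. Genes covered by at least 25% numbered 110, against 62 at 50%. Windows of 100 kb covered by at least 30% numbered 3, and those covered by at least 20% numbered 6 to 18 in the replicates' lists, against 15. The ratio for the last 0.5 Mb (2.18) was 2.11 without the last peak, 2.03 in the pooled list, 2.41 at a fold enrichment of at least 4 and 1.89 in mm9 from the last assembled base, and all these stayed above 1. The cause of these shifts was not tested, apart from stricter limits passing fewer items by construction and looser ones more. Of 69 alternatives, 46 left the value within its limits, 20 moved it and 3 reversed it.

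The alternative with a window ending at the last assembled base of mm10 was not run. No paired analysis was possible because the 2 replicates form 1 group.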
